A study of Mus musculus with 6 samples.

Results

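Collagens, laminins and the other core proteins of the extracellular matrix were described in denervated and control biceps muscle of young CD-1 mice. The members were the protein-coding rows of the deposited table of expressed genes whose symbol named a collagen or laminin chain, together with a list of named basement membrane proteins, cross-linking enzymes, proteoglycans and glycoproteins. The rule took 55 of 13105 genes. One of them, Col4a3bp, matched only by its symbol. It encodes a ceramide transporter and was left out of every count, so that 54 matrix genes remained, of which 33 encode collagen chains and 6 encode laminin chains.

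Each mouse lost the brachial plexus of one forelimb at C5 to T1 by surgical excision on postnatal day 5, and both biceps were taken and snap frozen on postnatal day 26, 3 weeks later. The data hold 3 denervated muscles and the 3 contralateral control muscles of the same mice, with no uninjured animal, so that every control comes from a mouse with a nerve injury on the other side. CD-1 is an outbred stock. The series sets postnatal muscle growth against an arrested growth that ends in contracture. Total RNA of whole muscle was amplified, sequenced as paired-end reads of 75 bases and quantified as TPM, the abundance of a transcript per length as a share of its library. The labels state at least 35 to 40 M reads per library, but the files hold no counts, so the depth behind a single value is unknown.

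The matrix of skeletal muscle has layers with different proteins. Fibrillar collagens build the fibres of the connective tissue between muscle fibres, mostly from fibroblasts, and lysyl oxidases cross-link them. A basement membrane of type IV collagen, laminins, nidogens and perlecan wraps each muscle fibre, and type VI collagen lies where the basement membrane meets the fibrillar collagens. A smaller family of transmembrane collagens is made by muscle fibres and other cells, and some of its members are known from the contact between motor nerve and muscle in mice.

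Most genes of the table stood higher in denervated muscle as deposited, with a median log2 fold change of 0.71 over the 12268 genes tested. The listed genes also held more of the full TPM total there, at 77.25% to 80.34% against 68.8% to 70.38% in control muscle. Every member was therefore also fitted after median-of-ratios scaling, in which the middle of the genes is placed at no change and which brought that median to 0.01. The words rose and fell are kept for genes that limma called in 1 direction on both scales, at a Benjamini-Hochberg adjusted p under 0.05 over all genes tested. Fold changes are differences of log2(TPM + 1), so that those of weakly expressed genes come out too small. In whole muscle, fewer cells of a type and less RNA per cell cannot be told apart.

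The sequences shown first are those of the miR-29 family, a family of microRNAs known for its many target sites in collagen transcripts. The mature forms come from RefSeq (GRCm38.p6), read 5′ to 3′, with the seed (bases 2 to 8) in capitals.
miR-29a-3p: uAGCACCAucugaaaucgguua
miR-29b-3p: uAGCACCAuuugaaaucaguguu
miR-29c-3p: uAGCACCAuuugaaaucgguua
All of them share the seed AGCACCA, whose complement in a transcript is TGGTGCT. On the transcribed strand, the longest annotated 3′ untranslated region held TGGTGCT in 26 of 54 matrix genes (48.1%), against 1861 of 11662 genes of the table that have such a region (16.0%). Per length, the matrix genes held 0.633 matches per kb and all genes 0.114 per kb. Collagen chains held it in 21 of 33 genes, at 0.740 per kb, and laminin chains in 1 of 6. Fibrillar collagens had the motif in 9 of 11 genes, at 1.03 per kb, and none of the 3 small leucine-rich proteoglycans had it. The authors' deposited table names miR-29 among the predicted microRNAs of 37 of the 54 matrix genes (68.5%) and of 3365 of all 13105 genes (25.7%). A match describes the letters of the transcript and does not show that the site is used. miR-29 itself was not measured in these libraries.

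The sites below lie within an exon, in the 3′ untranslated region of each gene (GENCODE M21, GRCm38). They were chosen from abundant fibrillar and basement membrane collagens and from 3 collagens that rose in denervated muscle, and not every match in such genes is shown. Each is given on the strand of the gene with the motif in capitals.
Col1a1, chr11:94952528-94952554, plus strand: aaggaatttcTGGTGCTatagaagctg
Col3a1, chr1:45348972-45348998, plus strand: aatgtctcaaTGGTGCTataataaata
Col4a1, chr8:11199752-11199778, minus strand: cgtcacaacaTGGTGCTactccccccc
Col4a5, chrX:141688243-141688269, plus strand: ctcccaccaaTGGTGCTaatatcctct
Col4a5, chrX:141688524-141688550, plus strand: ttctttttcaTGGTGCTactaatccta
Col4a5, chrX:141688947-141688973, plus strand: cttattattcTGGTGCTatgcaagaat
Col8a1, chr16:57624696-57624722, minus strand: tattctaccaTGGTGCTaatatcagag
Col25a1, chr3:130597871-130597897, plus strand: tttgtgttgtTGGTGCTaatagatctt
In each of these the match was followed by an A, a feature known to strengthen microRNA sites. That describes only the sites chosen here, since over all matches in the matrix genes it held for 22 of 44. The matches in Col4a2, for example, were not followed by an A. Matrix genes with a miR-29 entry in the authors' deposited table had a median scaled log2 fold change of 0.11 (34 tested) and those without one -0.13 (16 tested), beside medians of 0.02 and 0.00 for all tested genes with and without such an entry. The 34 include Col4a5, Col7a1, Col13a1 and Col19a1, which reached 1 TPM in denervated libraries alone and had to stand higher there to be tested. None of the 16 passed in that way, so the medians of the matrix genes are not on equal terms.

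**Figure D1:**
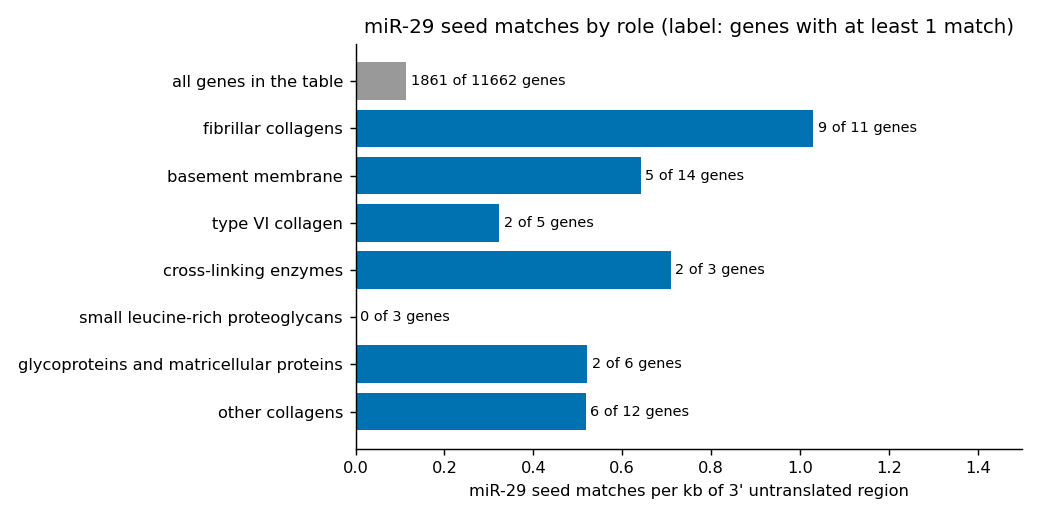
Matches to the miR-29 seed per kb of the longest 3′ untranslated region (horizontal axis), for all genes of the table (grey) and for the matrix genes by role (blue), with the number of genes that hold at least 1 match beside each bar. Fibrillar collagens had the highest density, at 1.03 per kb against 0.114 per kb for all genes, and small leucine-rich proteoglycans had none.

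Of the 54 matrix genes, 50 passed the filter of at least 1 TPM in at least 3 of the 6 libraries. Col20a1, Col24a1, Col27a1 and Col6a5 did not. Col4a5, Col7a1, Col13a1 and Col19a1 passed through their denervated libraries alone, so that they had to stand higher there to be tested, and their calls add nothing to a count. On both scales 8 of the 50 rose and 0 fell, while over all genes tested 15.7% rose and 4.50% fell. Without those 4 genes, 4 of 46 matrix genes rose, beside 13.8% of all genes tested that reached the filter value in at least 1 control library. On the deposited scale alone 32 of 50 were called higher, against 69.9% of all genes, and 0 lower, against 4.50%. After scaling alone 8 were called higher, against 15.7%, and 1 lower, against 18.6%. The 2 groups did not overlap after scaling for the same 8, with denervated muscle above, which held for 24.3% of all genes, and for 1 with denervated muscle below, which held for 24.4%. The median of the matrix genes was 0.85 as deposited and 0.04 after scaling, beside 0.71 and 0.01 for all genes. In all, 49 of the 50 had a positive fold change as deposited. After scaling, denervated muscle was the higher in all 3 mice for 13 of the 50, against 32.1% of all genes. These 13, like the 8 without overlap, include the 4 genes that had to stand higher to be tested. With a replicate block for the mouse, 9 rose, against 16.2% of all genes, and 0 fell, against 4.87%, the added gene being Col14a1. That fit called 5 lower after scaling, against 19.1%, which were Lamb2, Lamc1, Loxl2, Col11a1 and Fn1. On the deposited scale it called 40 higher instead of 32, against 72.1%, the added genes being Col1a1, Col1a2, Col11a2, Col12a1, Dcn, Postn, Sparc and Ctgf.

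The 8 genes that rose did not include the collagens that make up most of the muscle matrix. They were Col25a1, Col23a1, Col13a1, Col19a1, Col7a1 and Col8a1 among the 11 tested chains of the remaining collagens (Col15a1 and Col18a1 being counted with the basement membrane), the type IV chain Col4a5, and the cross-linking enzyme Loxl1. Of these, Col4a5, Col7a1, Col13a1 and Col19a1 could be tested only through their denervated libraries, so their calls add nothing to these counts. Over all genes tested 15.7% rose and 4.50% fell. None of the 9 tested fibrillar chains, the 4 tested type VI chains or the 6 laminin chains rose or fell. The same held for the 3 small leucine-rich proteoglycans and the 6 glycoproteins.

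**Figure D2:**
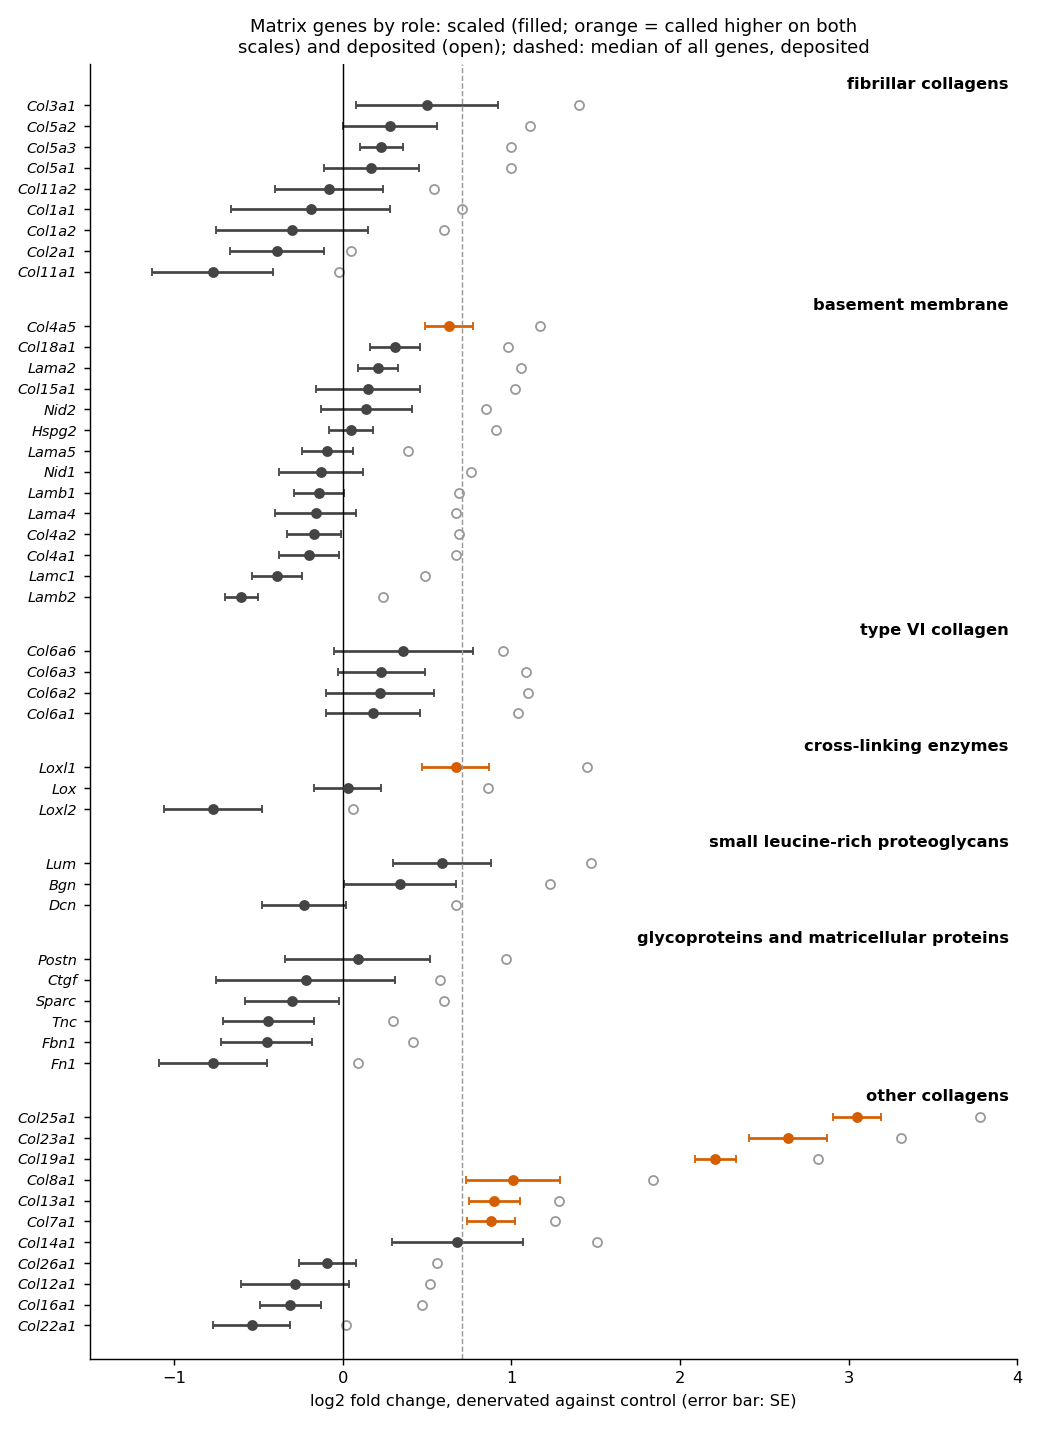
Log2 fold change of denervated against control muscle for the 50 tested matrix genes, grouped by role and ordered by the scaled value within each role. Filled points with bars are scaled values and their standard errors, orange where the gene rose on both scales, open points are deposited values, and the dashed line is the deposited median of all genes, at 0.71.

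The 2 largest changes among the matrix genes were those of the transmembrane collagens Col25a1 and Col23a1. Such proteins cross the plasma membrane and hold their collagen domain outside the cell. The third among the members, Col13a1, could be tested only through its denervated libraries, and the grouping was made after the values were seen. Col25a1 encodes collagen XXV, which mouse muscle needs for motor axons to enter it during development (ENSMUSG00000058897, chromosome 3: 130131501 to 130599877, plus strand, GRCm38). It measured 1.67, 1.77 and 1.59 TPM in the control muscles of mice 1, 2 and 3, and 48.6, 34.8 and 27.3 TPM in the denervated ones. Every denervated muscle stood far above every control, and the control muscles were almost alike. The means were 1.68 ± 0.0869 and 36.9 ± 10.8 TPM (SD, n = 3). The log2 fold change was 3.78 ± 0.20 (SE) as deposited and 3.05 ± 0.14 after scaling, with limma adjusted p-values of 2.53e-06 and 1.74e-05.

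Col23a1, collagen XXIII (ENSMUSG00000063564, chromosome 11: 51289920 to 51583918, plus strand), measured 1.33, 1.30 and 0.715 TPM in the controls and 31.6, 13.3 and 18.2 TPM after denervation. The groups did not overlap, and mouse 1 had the highest denervated value. Its scaled log2 fold change was 2.64 ± 0.23 (SE; limma adjusted p = 1.90e-04). Col25a1 and Col23a1 remained called in all 9 fits that left out a library or a mouse. Col13a1, collagen XIII, is anchored in the muscle membrane and is needed for the mouse neuromuscular junction to mature (ENSMUSG00000058806, chromosome 10: 61838236 to 61979108, minus strand). It measured 0.192, 0.282 and 0.211 TPM in the controls and 2.26, 1.41 and 2.35 TPM after denervation. Both groups were low, and the lack of overlap of their TPM was set by the filter. The scaled log2 fold change was 0.90 ± 0.15 (SE; limma adjusted p = 0.00315), a value that the pseudocount holds down at these levels.

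Col19a1, Col7a1 and Col8a1 were the other 3 of the remaining collagens that rose. Col19a1, collagen XIX, is a chain of basement membrane zones that muscle makes during mouse development (ENSMUSG00000026141, chromosome 1: 24261890 to 24587472, minus strand). It measured 0.629, 0.889 and 0.619 TPM in the controls and 12.1, 9.75 and 11.5 TPM after denervation. The 3 denervated muscles were close to each other and far above the controls, with a scaled log2 fold change of 2.21 ± 0.12 (SE; limma adjusted p = 2.86e-05). Col7a1, the chain of the anchoring fibrils of skin, measured 0.295, 0.197 and 0.147 TPM in the controls and 2.65, 1.82 and 1.35 TPM after denervation. Levels were low in both groups, and the scaled log2 fold change was 0.88 ± 0.14 (SE; limma adjusted p = 0.00328). Col19a1 and Col7a1 passed the filter through their denervated libraries alone. The lack of overlap of their TPM between groups was thus set by the filter, and their p-values carry the same limit. Col8a1, the alpha 1 chain of the network-forming collagen VIII, measured 5.35, 8.78 and 6.17 TPM in the controls and 36.0, 33.1 and 15.3 TPM after denervation. Mouse 3 had the smallest rise, and the groups did not overlap. The scaled log2 fold change of Col8a1 was 1.01 ± 0.28 (SE; limma adjusted p = 0.0280), and its call was lost in 6 of 9 fits that left out a library or a mouse, with an adjusted p of up to 0.182. The authors' deposited table of genes with a log2 fold change of at least 2.00 holds 336 higher genes, among them Col25a1, Col23a1 and Col19a1, and 21 lower genes, none of them a matrix member.

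**Figure D3:**
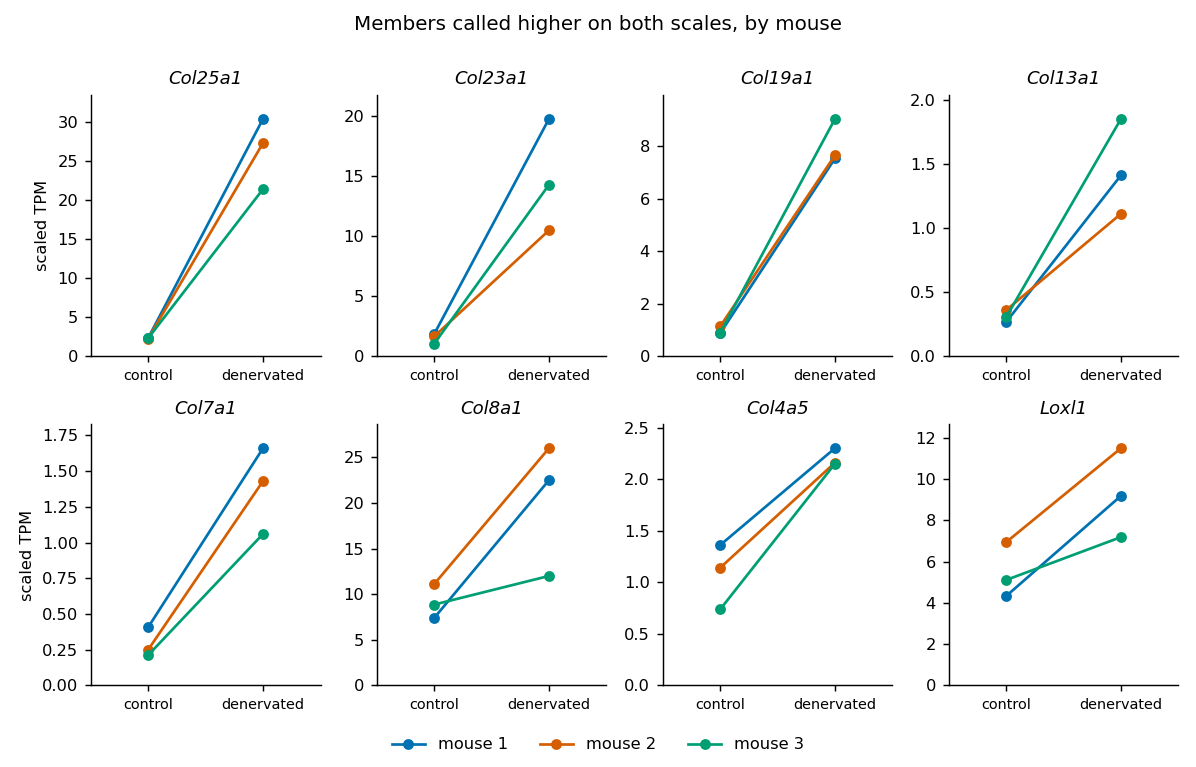
Scaled TPM (vertical axes, each from 0) of the 8 matrix genes that rose, with a line from the control to the denervated muscle of each mouse. All 3 lines go up in every panel, and Col25a1, Col23a1 and Col19a1 rise furthest relative to their control values. Col4a5, Col7a1, Col13a1 and Col19a1 could be tested only through their denervated libraries.

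For 4 of these collagens the sequence before the start of the gene is shown, because they are the ones that rose furthest or belong to the transmembrane group. Each is the 250 bases before the RefSeq start (GRCm38.p6), read 5′ to 3′ on the strand of the gene. Capitals mark CANNTG, the E-box that myogenic factors are known to bind, which reads the same on both strands.
Col25a1, chr3:130180595-130180844, plus strand: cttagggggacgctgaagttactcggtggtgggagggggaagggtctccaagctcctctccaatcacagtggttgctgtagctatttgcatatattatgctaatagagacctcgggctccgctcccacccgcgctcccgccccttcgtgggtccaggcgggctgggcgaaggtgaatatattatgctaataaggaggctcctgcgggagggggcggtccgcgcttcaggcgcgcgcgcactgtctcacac
Col23a1, chr11:51289670-51289919, plus strand: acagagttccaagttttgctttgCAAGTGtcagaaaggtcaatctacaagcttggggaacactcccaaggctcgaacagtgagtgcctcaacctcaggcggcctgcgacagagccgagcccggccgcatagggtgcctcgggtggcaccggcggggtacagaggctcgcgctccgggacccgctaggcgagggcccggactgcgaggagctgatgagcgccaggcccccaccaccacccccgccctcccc
Col19a1, chr1:24587438-24587687, minus strand: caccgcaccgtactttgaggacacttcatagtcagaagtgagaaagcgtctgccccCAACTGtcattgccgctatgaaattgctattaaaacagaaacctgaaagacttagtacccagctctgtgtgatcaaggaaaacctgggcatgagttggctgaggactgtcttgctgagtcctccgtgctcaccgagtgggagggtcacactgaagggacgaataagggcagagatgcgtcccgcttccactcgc
Col13a1, chr10:61979109-61979358, minus strand: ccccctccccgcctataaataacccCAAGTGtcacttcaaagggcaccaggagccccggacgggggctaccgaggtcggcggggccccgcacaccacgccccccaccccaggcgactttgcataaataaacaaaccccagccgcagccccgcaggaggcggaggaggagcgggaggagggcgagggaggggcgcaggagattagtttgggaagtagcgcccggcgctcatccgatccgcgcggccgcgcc
CANNTG stood once in the windows of Col23a1, Col19a1 and Col13a1 and not in that of Col25a1, while 66.0% of 27025 windows of this length held it. The form CAGCTG stood in none of these windows and in 12.8% of all windows. The RefSeq start of Col25a1 lies 49344 bases inside the GENCODE gene, so the annotations differ on where this gene begins.

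The remaining collagens of this group did not pass the rule. Col14a1, a collagen attached to fibril surfaces, measured 5.70, 14.9 and 6.44 TPM in the controls and 30.7, 36.4 and 14.6 TPM after denervation. It was higher in the denervated muscle of each mouse, but mouse 3's denervated value was just under the control value of mouse 2. Its scaled log2 fold change of 0.68 ± 0.39 (SE) had a limma adjusted p of 0.222, and one of 0.0327 in the fit with a replicate block for the mouse. Col22a1, a collagen of the myotendinous junction, measured 1.64, 1.34 and 2.09 TPM in the controls and 1.95, 2.52 and 0.922 TPM after denervation. These groups overlapped, and the scaled log2 fold change was -0.54 (adjusted p = 0.117). The fibril-associated chains Col12a1 and Col16a1, and Col26a1, had scaled values of -0.28, -0.31 and -0.09. Col20a1 stayed under the filter, with 0.342 to 0.659 TPM in the controls and 0.457 to 2.22 TPM after denervation.

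Fibrillar collagens held by far the most of the collagen message, and none of their 9 tested chains rose or fell. Their summed level was 327, 1013 and 471 TPM in the control muscles of mice 1, 2 and 3, and 1104, 1505 and 637 TPM in the denervated ones. After scaling it was 452, 1283 and 676 in the controls and 691, 1182 and 501 after denervation, so that the denervated muscle was higher in mouse 1 and lower in mice 2 and 3. On the deposited scale 4 of the 9 were called higher, beside 69.9% of all genes. With a replicate block for the mouse 7 were, beside 72.1%. The median on that scale was 0.71, the same as for all genes. After scaling it was -0.08.

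Col1a1, the alpha 1 chain of type I collagen (ENSMUSG00000001506, chromosome 11: 94936224 to 94953042, plus strand), measured 104, 322 and 154 TPM in the controls and 273, 478 and 172 TPM after denervation. Its partner chain Col1a2 measured 110, 350 and 166 TPM in the controls and 290, 444 and 174 TPM after denervation. Both were highest in mouse 2 in either group, and the groups overlapped. The scaled log2 fold changes were -0.19 ± 0.47 for Col1a1 and -0.30 ± 0.45 for Col1a2 (SE), with adjusted p-values of 0.796 and 0.655. Col3a1, the chain of type III collagen and the most abundant of this group over the 6 libraries (ENSMUSG00000026043, chromosome 1: 45311538 to 45349706, plus strand), measured 90.1, 291 and 122 TPM in the controls and 470, 510 and 249 TPM after denervation. It was higher in the denervated muscle of each mouse, yet the denervated value of mouse 3 was under the control value of mouse 2. As deposited its log2 fold change was 1.40 ± 0.41 (SE; adjusted p = 0.0118), and after scaling 0.50 ± 0.42 (adjusted p = 0.399).

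The type V chains, which set the width of type I fibrils, were called higher as deposited, with log2 fold changes of 1.00, 1.11 and 1.00 for Col5a1, Col5a2 and Col5a3, and had scaled values of 0.17, 0.28 and 0.23. Col11a1, a chain of type XI collagen, measured 3.83, 8.98 and 5.25 TPM in the controls and 5.59, 9.33 and 3.27 TPM after denervation. Its groups overlapped, and the scaled log2 fold change of -0.77 ± 0.36 (SE) was not called (adjusted p = 0.140 without and 0.0212 with a replicate block for the mouse). Col2a1, known from cartilage, stood between 0.641 and 1.85 TPM in the controls and between 0.497 and 1.79 TPM after denervation, with a scaled value of -0.39. Col11a2 had a scaled value of -0.08. Of the untested chains, Col24a1 measured 1.02, 1.51 and 0.618 TPM in the controls and 0.579, 0.676 and 0.745 TPM after denervation, and Col27a1 measured 0.327 to 0.514 TPM in the controls and 0.999 to 1.59 TPM after denervation.

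**Figure D4:**
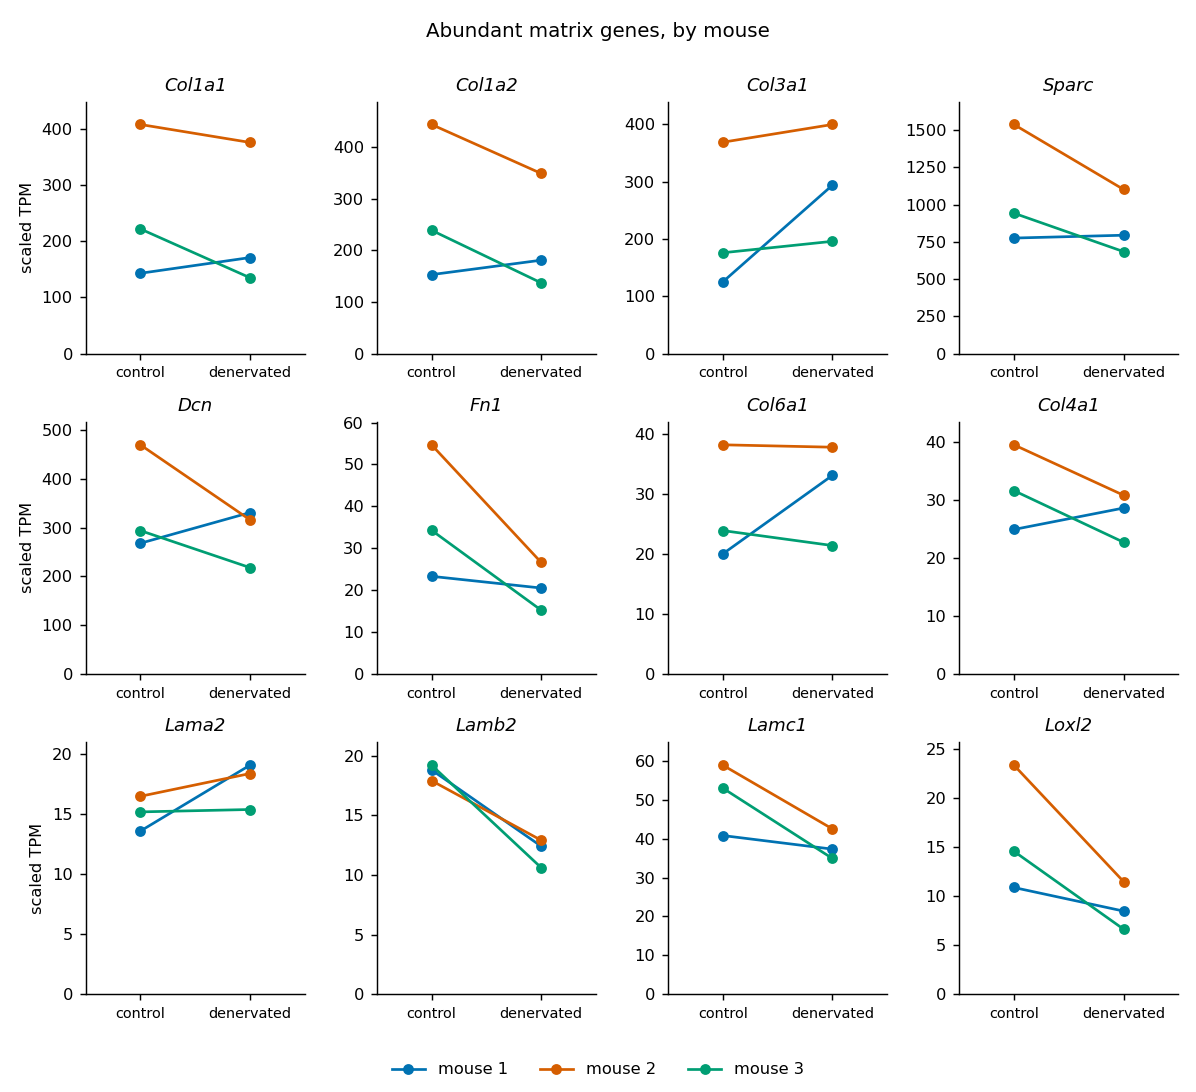
Scaled TPM (vertical axes, each from 0) of 12 of the matrix genes given by library in the text, with a line from the control to the denervated muscle of each mouse. Mouse 2 lies highest in both groups for Col1a1, Col1a2 and Col3a1, and Lamb2 goes down in all 3 mice.

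Of the 14 basement membrane genes, all of them tested, 1 rose and 0 fell, and the 1 that rose, Col4a5, passed the filter through its denervated libraries alone. Over all genes 15.7% rose and 4.50% fell. As deposited, 12 of the 14 were called higher, beside 69.9% of all genes, with a median of 0.73. After scaling 1 was, beside 15.7%, with a median of -0.11. Col4a1 and Col4a2 encode the main type IV chains. They lie head to head on chromosome 8, where their annotated 5′ ends overlap by 22 bases. Col4a1 (ENSMUSG00000031502, chromosome 8: 11198423 to 11312826, minus strand) measured 18.0, 31.2 and 22.0 TPM in the controls and 45.7, 39.2 and 28.9 TPM after denervation. Col4a2 (ENSMUSG00000031503, chromosome 8: 11312805 to 11449287, plus strand) measured 15.2, 25.0 and 18.5 TPM in the controls and 37.5, 31.9 and 26.4 TPM after denervation. As deposited the groups overlapped for Col4a1 and not for Col4a2, and after scaling they overlapped for both, with scaled values of -0.20 and -0.17. Col4a5, the alpha 5 chain (ENSMUSG00000031274, chromosome X: 141475385 to 141689234, plus strand), measured 0.986, 0.901 and 0.514 TPM in the controls and 3.68, 2.75 and 2.73 TPM after denervation. It was the 1 basement membrane gene that rose, at a low level and with a scaled log2 fold change of 0.63 ± 0.14 (SE; limma adjusted p = 0.0137). The lack of overlap of its TPM between groups was set by the filter.

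Laminins are trimers of an alpha, a beta and a gamma chain, and laminin alpha 2 is the main alpha chain around mouse muscle fibres. Lama2 (ENSMUSG00000019899, chromosome 10: 26980036 to 27619758, minus strand) measured 9.83, 13.0 and 10.6 TPM in the controls and 30.5, 23.4 and 19.6 TPM after denervation. The groups did not overlap as deposited, which held for 71.4% of all genes in this direction, and its scaled log2 fold change was 0.21 ± 0.12 (SE; adjusted p = 0.212). Lamb1 measured 7.29, 11.6 and 9.63 TPM in the controls and 19.7, 14.0 and 14.1 TPM after denervation, with a scaled value of -0.14. Lamc1, the gamma 1 chain of most laminins, measured 29.5, 46.5 and 37.0 TPM in the controls and 59.7, 54.1 and 44.5 TPM after denervation. The denervated value of mouse 3 lay below the control value of mouse 2, and the scaled value was -0.39 ± 0.15 (SE; adjusted p = 0.0824 without and 0.0435 with a replicate block for the mouse).

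Lamb2, the beta 2 chain that is concentrated at the neuromuscular junction (ENSMUSG00000052911, chromosome 9: 108479736 to 108490530, plus strand), was the matrix gene called lower after scaling. It measured 13.6, 14.1 and 13.4 TPM in the controls and 19.9, 16.5 and 13.5 TPM after denervation. As deposited the groups overlapped and the log2 fold change was 0.24 ± 0.16 (SE; adjusted p = 0.197). After scaling Lamb2 was lower in all 3 mice without overlap, at -0.60 ± 0.10 (adjusted p = 0.00369), so that the sign depends on the scale. Over all genes, 24.4% stood lower without overlap after scaling. Lama4 and Lama5 had scaled values of -0.16 and -0.09.

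The linkers of the basement membrane were not called after scaling. Nid1, the nidogen that ties laminin to type IV collagen and the most abundant gene of this group, measured 27.2, 54.7 and 34.0 TPM in the controls and 81.6, 68.9 and 44.8 TPM after denervation. Hspg2, perlecan, measured 12.9, 18.8 and 14.5 TPM in the controls and 35.4, 30.1 and 24.0 TPM after denervation. Nid2 measured 1.77, 4.73 and 2.23 TPM in the controls and 6.74, 6.46 and 4.14 TPM after denervation. Of these 3, only Hspg2 had groups that did not overlap as deposited, and the scaled values were -0.13 for Nid1, 0.05 for Hspg2 and 0.14 for Nid2. Col18a1, the precursor of endostatin, measured 1.83, 1.64 and 2.12 TPM in the controls and 6.20, 4.34 and 3.67 TPM after denervation. It was higher without overlap as deposited and had a scaled value of 0.31 ± 0.15 (SE; adjusted p = 0.152), while Col15a1 had one of 0.15. Marker lists of other cells that make basement membrane had lower sums after scaling. The summed scaled level of 10 endothelial markers was 133 to 160 in the controls and 70.9 to 79.1 after denervation. Of the 10, 9 were called lower after scaling and 0 on both scales, beside 18.6% and 4.50% of all genes. For 6 pericyte markers the summed scaled level was 221 to 264 and 99.4 to 105, with 1 fallen, Rgs5, which makes up most of that sum. Of the others Kcnj8 was called lower after scaling, and Cspg4 and Notch3 had scaled values of 0.20 and 0.37. As deposited the sums of both lists overlapped between groups. They were 96.6 to 126 TPM in the controls and 90.2 to 127 TPM after denervation for the endothelial markers. For the pericyte markers they were 156 to 208 and 126 to 162 TPM. No listed marker of these cells was at 0 in any library, and their part in the levels of the basement membrane genes was not tested.

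Type VI collagen is the beaded-filament collagen whose human mutations cause muscular dystrophies with contractures. All 4 tested chains were called higher as deposited, beside 69.9% of all genes, and none after scaling, beside 15.7%. Col6a1 (ENSMUSG00000001119, chromosome 10: 76708792 to 76726168, minus strand) measured 14.5, 30.1 and 16.7 TPM in the controls and 52.9, 48.1 and 27.2 TPM after denervation. Col6a2 measured 22.4, 51.2 and 25.4 TPM in the controls and 79.1, 86.6 and 44.7 TPM after denervation. Col6a3 measured 10.8, 25.7 and 19.2 TPM in the controls and 49.4, 37.1 and 31.2 TPM after denervation. For Col6a1 and Col6a2 the denervated muscle of mouse 3 lay below the control muscle of mouse 2, and Col6a3 did not overlap as deposited. Their scaled values were 0.18, 0.22 and 0.23, with adjusted p-values of 0.554 to 0.672. Col6a6, a chain related to Col6a3, measured 0.855, 3.34 and 0.753 TPM in the controls and 4.16, 5.56 and 2.01 TPM after denervation, with a scaled value of 0.36 (adjusted p = 0.548). Its neighbour on chromosome 9, Col6a5, stayed under the filter, at 0.136, 0.259 and 0.136 TPM in the controls and 1.64, 1.98 and 0.786 TPM after denervation. Each denervated muscle held more Col6a5 than any control, and without a filter on low values this gene was called higher on both scales.

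Of the 3 cross-linking enzymes 1 rose, Loxl1, and 0 fell, where over all genes 15.7% rose and 4.50% fell. Lysyl oxidases join collagen and elastin molecules, and Loxl1 is known mainly for its action on elastin in mice. Loxl1 (ENSMUSG00000032334, chromosome 9: 58287738 to 58313186, minus strand) measured 3.14, 5.48 and 3.56 TPM in the controls and 14.7, 14.6 and 9.15 TPM after denervation. It rose without overlap, with a scaled log2 fold change of 0.67 ± 0.20 (SE; limma adjusted p = 0.0394). Its call was lost in 6 of 9 fits that left out a library or a mouse, with an adjusted p of up to 0.189. Lox (chromosome 18: 52516067 to 52529867, minus strand) measured 6.77, 11.3 and 8.70 TPM in the controls and 20.7, 18.8 and 11.8 TPM after denervation. Its groups did not overlap as deposited and its scaled value was 0.03. Loxl2, which acts on type IV collagen, measured 7.87, 18.5 and 10.1 TPM in the controls and 13.6, 14.7 and 8.45 TPM after denervation, with overlap and a scaled value of -0.77 ± 0.29 (SE; adjusted p = 0.0782 without and 0.0151 with a replicate block for the mouse). The level of Loxl2 is uncertain, since 46.4% of its 31-base words also occur in another annotated gene.

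The small leucine-rich proteoglycans bind collagen fibrils and regulate their growth. Lum, lumican, measured 23.0, 46.7 and 24.6 TPM in the controls and 116, 95.1 and 54.5 TPM after denervation. Bgn, biglycan, measured 61.2, 130 and 66.1 TPM in the controls and 245, 243 and 118 TPM after denervation. Dcn, decorin, the most abundant of the 3, measured 194, 371 and 205 TPM in the controls and 529, 402 and 278 TPM after denervation. Lum did not overlap as deposited and was higher after scaling in all 3 mice, while the other 2 overlapped. The scaled log2 fold changes were 0.59 ± 0.29 for Lum (adjusted p = 0.160), 0.34 ± 0.33 for Bgn (adjusted p = 0.466) and -0.23 ± 0.25 for Dcn (SE; adjusted p = 0.513). Without the control muscle of mouse 2, Lum was called higher on both scales (adjusted p = 0.0414).

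None of the 6 glycoproteins and matricellular proteins was called on either scale without a replicate block for the mouse. Over all genes 69.9% were called higher and 4.50% lower as deposited, and 15.7% and 18.6% after scaling. With the block, Postn (adjusted p = 0.00160), Sparc (0.0104) and Ctgf (0.0208) were called higher as deposited, beside 72.1% of all genes. Fn1 was called lower after scaling, beside 19.1%. The median of the 6 was 0.50 as deposited, under the 0.71 of all genes, and -0.37 after scaling. Sparc, a collagen-binding protein and the most abundant matrix gene measured (ENSMUSG00000018593, chromosome 11: 55394500 to 55423183, minus strand), measured 561, 1213 and 657 TPM in the controls and 1269, 1402 and 871 TPM after denervation. Fn1, fibronectin, measured 16.9, 43.1 and 23.9 TPM in the controls and 32.8, 33.8 and 19.3 TPM after denervation. The groups of both overlapped. The scaled value was -0.30 ± 0.28 (SE; adjusted p = 0.449) for Sparc. That of Fn1 was -0.77 ± 0.32 (SE; adjusted p = 0.102 without and 0.0284 with a replicate block for the mouse), and Fn1 was lower after scaling in all 3 mice. Postn, periostin, known for its rise in healing and fibrotic tissue, measured 25.2, 72.4 and 28.9 TPM in the controls and 81.4, 112 and 45.5 TPM after denervation. Tnc, tenascin-C, measured 3.02, 5.74 and 4.46 TPM in the controls and 5.39, 8.04 and 3.76 TPM after denervation. Both overlapped, with scaled values of 0.09 and -0.44. Ctgf, a matricellular growth factor that responds to TGF-beta, measured 4.38, 19.5 and 6.47 TPM in the controls and 8.17, 20.1 and 13.3 TPM after denervation. Fbn1, the microfibril protein fibrillin-1, measured 17.1, 38.6 and 24.1 TPM in the controls and 40.9, 39.3 and 24.4 TPM after denervation. These groups overlapped too, with scaled values of -0.22 and -0.45, and 19.7% of the 31-base words of Ctgf and 19.9% of those of Fbn1 occur in other genes, so both levels are uncertain.

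Mouse 2 had the highest level of most matrix genes in both of its muscles. Its control muscle was the highest of the 3 controls for 40 of 50 matrix genes and its denervated muscle the highest of the 3 denervated for 35 of 50, with median deviations from the group mean of 0.43 and 0.29 on the scaled log2 scale. Over all genes the median deviations of these libraries were -0.01 and -0.00. The summed scaled level of the 54 matrix genes was 2056, 4332 and 2613 in the control muscles of mice 1, 2 and 3, and 2678, 3615 and 2029 in the denervated ones. It was higher after denervation in mouse 1 and lower in mice 2 and 3, and the groups overlapped. As deposited, the sum was higher after denervation in each mouse, at 1488, 3419 and 1821 TPM in the controls and 4282, 4602 and 2582 TPM after denervation. Markers of connective tissue cells were also highest in the control muscle of mouse 2, with summed scaled levels of 479, 724 and 565 for 12 fibroblast genes and 212, 424 and 269 for 8 tendon genes. This was not particular to them. The control sums were 133, 160 and 140 for endothelial, 221, 264 and 223 for pericyte and 95.9, 202 and 115 for macrophage markers. Myofibroblast markers stood at 52.1, 62.1 and 56.2. Adipocyte, satellite cell and muscle fibre sums were not highest there. The part of any of these cells in the difference between mice was not tested. The denervated muscle of mouse 3 and the control muscle of mouse 1 deviated the other way, with medians of -0.34 and -0.32. The count of risen matrix genes fell whichever mouse was left out, to 2 without mouse 1 and 3 without mouse 2 or mouse 3, from 8 with all. The count over all genes fell too, from 1922 to 841, 1295 and 844 without mice 1, 2 and 3. Without single control muscles 6, 9 and 6 matrix genes rose for mice 1, 2 and 3, and without single denervated muscles 2, 2 and 4. Over all genes those fits gave 1592, 1833 and 1514, and 1212, 1299 and 1262. Part of the loss among matrix genes is by construction. Col4a5, Col7a1, Col13a1 and Col19a1 fall under the filter in each of the 6 fits that leave out a denervated library or a mouse. They were called in each of the other 3.

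Ratios between 2 matrix transcripts of a library do not depend on the scale, and 11 such ratios were compared, chosen after the values were seen. With 3 libraries a group, the exact two-sided permutation test cannot give less than p = 0.1, so none can pass. The smallest value of that test after Benjamini-Hochberg adjustment over the 11 was 0.183. The type III to type I ratio, Col3a1 to Col1a1, was 0.870, 0.905 and 0.793 in the controls and 1.72, 1.07 and 1.45 after denervation. All denervated muscles had more Col3a1 than Col1a1 message and all controls less (exact p = 0.1). The 2 chains of type I collagen kept near equal levels, with Col1a2 to Col1a1 at 1.07, 1.09 and 1.08 in the controls and 1.06, 0.928 and 1.01 after denervation. Col4a2 to Col4a1 stayed between 0.802 and 0.912 in all 6 libraries, and Col6a2 to Col6a1 between 1.49 and 1.80, with overlap.

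Ratios between laminin chains and between lysyl oxidases also stood apart between the groups. Lama2 to Lamc1 was 0.333, 0.279 and 0.286 in the controls and 0.511, 0.433 and 0.441 after denervation. Lamb2 to Lamb1 was 1.87, 1.22 and 1.39 in the controls and 1.01, 1.17 and 0.956 after denervation. Neither ratio overlapped between groups, the first being higher in each denervated muscle and the second lower (exact p = 0.1 for each). Loxl1 to Lox was 0.463, 0.484 and 0.409 in the controls and 0.711, 0.780 and 0.773 after denervation. Loxl2 to Lox was 1.16, 1.63 and 1.17 in the controls and 0.657, 0.784 and 0.714 after denervation. Both parted the groups, in opposite directions (exact p = 0.1 for each), the second within the limit on Loxl2 given above. Col5a1 to Col1a1, Col6a3 to Col6a1 and Lama4 to Lama2 overlapped.

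**Figure D5:**
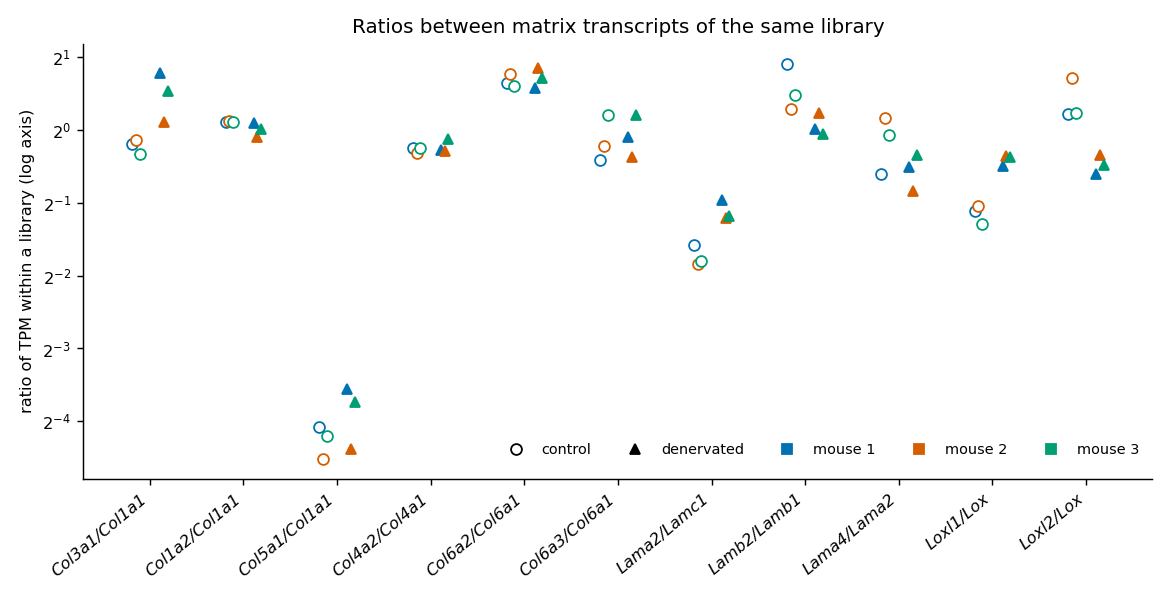
Ratio of the TPM of 2 matrix genes within a library (vertical axis, log scale) for 11 pairs, with circles for control and triangles for denervated muscle, coloured by mouse. The groups part for Col3a1/Col1a1, Lama2/Lamc1, Loxl1/Lox, Loxl2/Lox and Lamb2/Lamb1, and narrowly for Col1a2/Col1a1.

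Genes that make, sense and remodel the matrix were read from lists outside the members, where over all genes 15.7% rose and 4.50% fell. Of 21 tested genes of collagen synthesis and secretion, 1 rose and 0 fell, with a median of -0.01 after scaling. The one that rose was Plod2, the lysyl hydroxylase of collagen telopeptides, from 4.47 ± 1.19 to 15.1 ± 4.12 TPM (SD, n = 3; scaled 0.75, adjusted p = 0.0327). Pcolce, which speeds the cutting of procollagen and was the most abundant of the list, measured 43.9 ± 19.6 TPM in the controls and 83.8 ± 23.4 TPM after denervation, with a scaled value of 0.07. Among 11 tested elastic fibre and microfibril genes 2 rose and 0 fell, with a median of -0.20. These were Eln, elastin, the substrate of Loxl1, from 7.63 ± 1.42 to 23.4 ± 6.09 TPM (SD, n = 3; scaled 0.65, adjusted p = 0.0234), and Fbln1, fibulin-1 (scaled 0.70, adjusted p = 0.0432). Mfap4, the most abundant of them, was not called after scaling (0.53, adjusted p = 0.384), but rose in the fit with a replicate block for the mouse (adjusted p = 0.0463). Of 22 other glycoproteins and proteoglycans 2 rose and 0 fell, with a median of -0.16. They were Cyr61, a matricellular relative of Ctgf, from 10.9 ± 1.41 to 49.3 ± 11.8 TPM (SD, n = 3; scaled 1.20, adjusted p = 0.00322), and Ntn4, netrin-4, which binds laminins (scaled 0.74, adjusted p = 0.0126). The most abundant, Fmod, fibromodulin, had a scaled value of -0.58 (adjusted p = 0.253 without and 0.0160 with a replicate block for the mouse). With the block, Nov, another relative of Ctgf, fell (scaled -1.12, adjusted p = 0.00119).

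Ligands, receptors and mediators of TGF-beta, the growth factor best known for driving collagen genes, rose in 8 of 16 tested cases and fell in 0, with a median of 0.43 after scaling, where over all genes 15.7% rose and 4.50% fell. Tgfb3 measured 7.13, 9.55 and 7.02 TPM in the controls and 60.5, 46.2 and 41.2 TPM after denervation. It rose without overlap, with a scaled log2 fold change of 1.65 ± 0.11 (SE; limma adjusted p = 6.10e-05). Tgif1, a nuclear corepressor of the pathway, had a scaled value of 1.45 (adjusted p = 2.83e-04), and Smad3, the most abundant of the list and a mediator of the signal, one of 0.73 (adjusted p = 0.00107). The other 5 that rose were Tgfb1, Tgfbr1, Tgfbr3, Ltbp1 and Ltbp3, and the block added Smad2 (scaled 0.38, adjusted p = 0.0465). Ski, a corepressor, was called lower after scaling alone (-0.47, adjusted p = 0.0267). Receptors for the matrix rose in 6 of 20 tested cases and fell in 0, with a median of 0.28, beside the same shares of all genes. Itga9, the integrin alpha 9 chain, went from 11.7 ± 0.993 to 80.8 ± 8.51 TPM (SD, n = 3), with a scaled value of 1.83 ± 0.08 (SE; limma adjusted p = 1.54e-05). Sdc1, syndecan-1, had a scaled value of 1.31 (adjusted p = 5.32e-04) and Itgb1, the integrin beta 1 chain that pairs with most collagen and laminin receptors and the most abundant of the list, one of 0.57 (adjusted p = 0.00852). The other 3 that rose were Itgav, Ddr1 and Sdc4, while Itga1 and Itga6 were called lower after scaling alone (adjusted p = 0.0292 and 0.0397).

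Markers of the cells that make or fill the muscle matrix went different ways, where over all genes 15.7% rose and 4.50% fell. Of 12 fibroblast and fibro-adipogenic genes 1 rose, Fbln1, and 0 fell, with summed scaled levels of 479 to 724 in the controls and 497 to 648 after denervation. After scaling alone 2 of the 12 were called lower, and 3 with the mouse block, beside 18.6% and 19.1% of all genes. For 4 myofibroblast and smooth muscle genes the sum was 52.1 to 62.1 and 30.4 to 53.3. Of these 0 were called on both scales and 1 lower after scaling alone, while Lmod1 fell with the mouse block. Of 8 tendon genes 1 rose, Scx, a transcription factor of tendon cells, at sums of 212 to 424 and 164 to 268. Tnmd (scaled -1.39, adjusted p = 0.0277) and Kera (-1.38, adjusted p = 0.0285) were called lower after scaling, and both fell with the block. Of 9 macrophage genes 0 were called on both scales, at 95.9 to 202 and 105 to 156, and Cd68 rose with the block. Adipocyte genes rose in 3 of 6 cases, at 275 to 405 and 321 to 675, and satellite cell genes in 3 of 5, at 11.2 to 11.6 and 17.2 to 21.6, and the block added Lep to the first and Vcam1 to the second. Muscle fibre genes fell in 5 of 8, at 30825 to 33667 and 13609 to 15257. All of these sums are scaled, and their order can depend on the scale. As deposited, the fibroblast sum was 347 to 572 TPM in the controls and 632 to 965 TPM after denervation. The adipocyte and satellite cell sums also stood higher without overlap as deposited. Those of the myofibroblast, tendon, macrophage and muscle fibre genes overlapped. None of these markers was at 0 in any library, and their part in the matrix results was not tested.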

How the data were processed

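The submitters' processing notes name kallisto 0.42.1 and mm10. How transcripts were summed to genes, and the test behind the deposited p-values, are not stated in any label or header. The authors deposited log2 values per gene and library, read here as log2(TPM + 1) because their linear sums stay under the full TPM total. The p-values and adjusted p-values the authors deposited were used for no call. The matrix members, gene lists, ratios and the rule of calls on both scales were chosen with earlier results of these data known.

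All 12268 genes with at least 1 TPM in at least 3 of 6 libraries went into 1 limma fit (version 3.58.1, R 4.3.3) of group, using lmFit and trended eBayes. The fit was made on the deposited values and again on values scaled by median of ratios, where the factors were 0.697 to 0.789 for control and 1.27 to 1.60 for denervated libraries. Benjamini-Hochberg adjustment ran over all tested genes, and 0.05 was the threshold. The labels say that both muscles with a number come from 1 mouse. Deviations from the group means of same-mouse libraries correlated across all tested genes at 0.312, 0.183 and 0.411, so the numbers pair the samples. Across the matrix genes these correlations were 0.331, 0.695 and 0.341, while the control of mouse 1 and the denervated muscle of mouse 3 correlated at 0.533. Fits with the mouse as a replicate block are given where they change a call described here. Alternatives were another pseudocount, other filters, quantile and upper-quartile scaling, eBayes without a trend, and leaving out each library and each mouse.

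Values in every library are given for the most abundant gene of each role, the 4 with the largest scaled change and a fixed set of well-known matrix genes. From each list outside the members, the most abundant gene and up to 2 called genes with the largest scaled change are named with values. Other genes were named after their values were seen. Coordinates are from GENCODE M21 on GRCm38, and shared sequence was counted as 31-base words of its transcripts. One further list of marker genes is not reported here. The scripts were tested on simulated data.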

Additional observations from a re-analysis of the deposited data

How the results depend on the processing

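No matrix gene fell on both scales in any of the 16 alternatives. A fall could hardly be called by this rule, since 49 of the 50 tested had a positive fold change as deposited. After scaling alone 1 was called lower in the main fit and 0 to 5 in the alternatives. The 5 came with a replicate block for the mouse, beside 19.1% of all genes. None of the 8 that rose changed direction in any alternative that tested it. With a replicate block for the mouse, 9 matrix genes rose instead of 8, Col14a1 being added, and it changed no other call of a matrix gene on both scales. With a filter of at least 5 TPM, 5 matrix genes and 0 basement membrane genes rose, because Col4a5, Col7a1 and Col13a1 were no longer tested. With no filter, 1 type VI chain rose, Col6a5. Leaving out single libraries or mice gave 841 to 1833 risen genes in all, 2 to 9 matrix genes, 0 to 1 basement membrane genes, 0 to 1 cross-linking enzymes, 2 to 6 of the other collagens and 0 to 1 small leucine-rich proteoglycans. The lowest counts over all genes came without mouse 1 (841) and without mouse 3 (844), followed by those without the denervated muscle of mouse 1 (1212) or mouse 3 (1262). Lamb2 was not called lower after scaling without mouse 1 or without mouse 3.

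Scaled log2 fold changes of genes that were not called could change sign when single libraries or mice were left out, and the cause was not tested. They ranged from -0.14 to 0.47 for Col15a1, -0.05 to 0.19 for Hspg2, -0.47 to 0.19 for Lama4, -0.23 to 0.01 for Lama5, -0.30 to 0.03 for Lamb1, -0.37 to 0.10 for Nid1, -0.08 to 0.43 for Nid2, -0.14 to 0.27 for Lox and -0.33 to 0.22 for Col11a2. They ranged from -0.59 to 0.20 for Col1a1, -0.67 to 0.10 for Col1a2, -0.08 to 0.42 for Col5a1, -0.63 to 0.31 for Ctgf, -0.22 to 0.50 for Postn, -0.18 to 0.09 for Col26a1, -0.46 to 0.01 for Dcn, -0.05 to 0.45 for Col6a1 and -0.12 to 0.46 for Col6a3. After quantile normalization the signs turned for Nid1 (0.05), Col1a1 (0.17), Col1a2 (0.05), Sparc (0.60) and Dcn (0.22), none of them called. The share of higher among scaled calls over all genes was 45.7% and ranged from 39.7% without mouse 3 to 53.0% with upper-quartile scaling. The files give no counts, so no limit from depth can be set on single values.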
